A study of Mus musculus with 42 samples.

Results

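Messenger RNA of 8 genes best known from the nervous system was followed in mouse preimplantation embryos after injection of antisense morpholinos. The genes are Sox1, Olig1, Dbx1, Lhx2, Tubb3, Nptx1, Tacr3 and Gpr50. They were chosen because their signal was higher with at least 1 of 3 morpholinos, so their values after injection are given as a description, without a test. They are 8 of the 18193 genes that the platform annotation names on these arrays, and 13 of 45101 probe sets measure them. All 8 passed the filter on low signals, but some did so through few groups outside the Nanog experiment, whose arrays lie on a higher scale. In that experiment Sox1 and Dbx1 were above the filter in all 6 groups, Nptx1 in 5 and Olig1 in 3. Nptx1 and Sox1 each passed through 1 of the 8 groups outside the Nanog experiment, and Olig1 and Dbx1 through 2.

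The study injected fertilized B6D2F1 embryos of the 1-cell stage. They received a morpholino directed at Oct4 (gene symbol Pou5f1), Sall4 or Nanog, or a control morpholino that matches no mouse sequence. Embryos, uninjected ones included, were grown in Human Tubal Fluid medium with a serum supplement under mineral oil and collected 20 h or 44 h after injection. Total RNA was amplified, labelled with biotin and hybridised to 42 Affymetrix arrays, 3 for each of 14 groups. At 20 h, Oct4 and Sall4 were each studied with uninjected embryos of their own, which served as the reference because no group with the control morpholino is labelled for them. At 44 h, the Oct4 and Sall4 morpholinos shared 1 uninjected and 1 control morpholino group, so these 2 comparisons share their control arrays. The Nanog experiment had its own uninjected, control morpholino and Nanog morpholino embryos at both times. Titles call the 3 arrays of a group biological replicates. The sources used here give neither the number of embryos behind an array nor whether each oligomer blocks translation or splicing.

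The median signal per array was 193 to 227 for the 18 arrays of the Nanog experiment and 26.1 to 33.3 for the other 24, so levels are compared only within each of these sets. Correlations between replicate arrays were 0.896 to 0.964. The label of preimplantation embryos was checked against marker lists. The 5 measured genes of the 2-cell stage lay above the array median in all 14 groups. At least 7 of 8 oocyte genes did, and at most 1 of 9 granulosa cell genes. Of 9 blood and fibroblast genes, 3 did in uninjected and in Nanog morpholino embryos of the Nanog experiment at 20 h. In each other group at most 2 did. The mRNA of the targeted gene need not fall with a morpholino. At 44 h Pou5f1 was at 2218 ± 260 (SD, n = 3) with the Oct4 morpholino against 3925 ± 456 with the control. Sall4 was at 3662 ± 462 with its own morpholino against 3169 ± 385, and Nanog at 2687 ± 1129 against 3828 ± 110. The lower Pou5f1 was not particular to the Oct4 morpholino. At 44 h it was at 2203 ± 712 with the Sall4 morpholino, and at 4034 ± 665 against 6495 ± 376 with the Nanog morpholino. With the Oct4 morpholino at 20 h it was at 3293 ± 466 against 2803 ± 203 in uninjected embryos. The number of arrays limits the precision of every value below.

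Neural tissue does not exist in a preimplantation embryo. In this period the embryo degrades the transcripts it inherited from the egg, switches on its own genome at the 2-cell stage and sorts its cells into an outer trophectoderm and an inner cell mass. Transcription factors of the SoxB1, Olig, Dbx and LIM-homeodomain families later pattern the neural plate and tube, and genes of the neuronal cytoskeleton, synapse and peptide receptors mark cells that have become neurons. Repressors such as REST and the Polycomb complexes are known to hold many of these genes silent outside neurons.

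The promoters are shown for Tubb3, Gpr50 and Tacr3, the 3 genes called lower at 44 h than at 20 h in uninjected embryos. They are also shown for 2 transcription factors that were higher with the Oct4 morpholino at 20 h (Sox1, Dbx1). RefSeq's table for build GRCm38.p6 held windows for 6 of the 8 genes; Nptx1 and Olig1 had none. Each window runs from 250 bases before to 50 bases after the annotated start of transcription, and the 250 bases before the start are printed 5′ to 3′ on the gene's own strand. Capitals mark matches to 7 short motifs, searched on both strands. The octamer core, which Oct4 binds, was written TGCAAAT, and the core bound by Sox proteins CATTGT. Part of the long site of the repressor REST was written CAGCACC, and the E-box preferred by proneural factors CAGCTG. Of the general promoter elements, one was searched as TATAAA, another as CCAAT, and the binding box of Sp1 as GGGCGG.
Tubb3: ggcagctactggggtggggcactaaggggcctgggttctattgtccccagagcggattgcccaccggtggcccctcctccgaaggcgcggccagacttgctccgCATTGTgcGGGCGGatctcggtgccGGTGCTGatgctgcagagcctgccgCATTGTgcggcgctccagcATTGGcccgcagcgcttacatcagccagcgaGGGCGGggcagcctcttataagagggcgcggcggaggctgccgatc
Gpr50: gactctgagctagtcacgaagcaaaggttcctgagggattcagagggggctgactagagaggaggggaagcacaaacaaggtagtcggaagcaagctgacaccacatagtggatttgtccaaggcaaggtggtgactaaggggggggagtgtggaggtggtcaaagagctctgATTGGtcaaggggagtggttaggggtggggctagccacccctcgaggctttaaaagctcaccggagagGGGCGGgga
Tacr3: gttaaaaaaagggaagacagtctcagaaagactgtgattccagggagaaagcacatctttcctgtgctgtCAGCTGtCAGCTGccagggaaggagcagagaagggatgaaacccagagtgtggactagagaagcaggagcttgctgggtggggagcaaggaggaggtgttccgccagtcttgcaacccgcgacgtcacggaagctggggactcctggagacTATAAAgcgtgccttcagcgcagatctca
Sox1: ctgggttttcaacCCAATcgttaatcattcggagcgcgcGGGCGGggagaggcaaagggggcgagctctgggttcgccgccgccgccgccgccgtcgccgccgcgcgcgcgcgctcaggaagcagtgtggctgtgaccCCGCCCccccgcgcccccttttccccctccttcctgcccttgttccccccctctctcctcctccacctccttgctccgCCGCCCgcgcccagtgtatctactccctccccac
Dbx1: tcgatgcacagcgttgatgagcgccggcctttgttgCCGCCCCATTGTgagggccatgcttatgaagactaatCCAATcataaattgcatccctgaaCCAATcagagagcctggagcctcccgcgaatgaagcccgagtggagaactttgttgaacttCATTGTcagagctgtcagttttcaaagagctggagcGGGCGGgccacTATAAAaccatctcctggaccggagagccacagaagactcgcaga
The Tubb3 run lies at chr8:123411303-123411552 on the plus strand, the Gpr50 run at chrX:71663417-71663666 (plus), the Tacr3 run at chr3:134828757-134829006 (plus), the Sox1 run at chr8:12395269-12395518 (plus) and the Dbx1 run at chr7:49636836-49637085 (minus).

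Few letters were shared by the 3 genes that fell over time. Tubb3 and Gpr50 both held a CCAAT match on the opposite strand at bases -77 to -73 from the start and an Sp1 box, while Tacr3 held neither of these. Tacr3 held 2 copies of CAGCTG and a TATAAA match at -29 to -24. Tubb3 alone among the 7 windows held the partial REST site, on the opposite strand at -121 to -115. The Tubb3 and Dbx1 windows each held 2 Sox cores. The only octamer core of the 7 windows was that of Sox1, at bases 20 to 26 after the start and so outside the printed run. Of all 32841 windows in the table, 4.02% held an octamer core, 12.6% a Sox core, 7.14% the partial REST site, 16.3% the E-box, 13.6% TATAAA, 37.4% CCAAT and 35.7% the Sp1 box. No match in these windows overlapped a match to another motif. A match of this length describes letters and is not a site of binding. The windows differed in base composition: Sox1 had 70.7% G and C with an observed over expected CpG ratio of 1.07, and Tubb3 67.3% with 0.765. Tacr3 had 57.0% with 0.337 and Gpr50 57.3% with 0.36, close to the medians of all windows (52.7% and 0.384).

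Sox1, Olig1 and Dbx1 were higher with the Oct4 morpholino than in uninjected embryos at 20 h. Tubb3, Nptx1, Tacr3 and Gpr50 were higher with it than with the control morpholino at 44 h. For Oct4 and Sall4 at 20 h, effects of injection and of the targeted gene cannot be told apart. In the Nanog experiment at 20 h, the control morpholino differed from uninjected embryos by 1.01 for Olig1, 0.27 for Dbx1 and 0.01 for Sox1 (log2). The arrays overlapped for each of these genes. Lhx2 stood out with the Nanog morpholino at both times, and Tubb3, Nptx1 and Gpr50 with the Nanog morpholino at 44 h. With the Sall4 morpholino, Tubb3 was higher at 20 h and Tacr3 at 44 h. Counting genes whose 3 arrays with the morpholino all lay above the 3 reference arrays, the Oct4 morpholino had 3 of the 8 genes at 20 h (8.53% of the 15502 genes tested) and 4 at 44 h (13.7%). The Sall4 morpholino had 1 of 8 at 20 h (Tubb3; 7.37% of all genes) and 1 at 44 h (Tacr3; 9.48%). The Nanog morpholino had 1 at 20 h (Lhx2; 5.6%) and 4 at 44 h (12.8%), and at 20 h all 3 of its Dbx1 arrays lay below the controls (8.07% of all genes were lower in this way). These arrays chose the genes, so nothing is read from the counts.

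**Figure D1:**
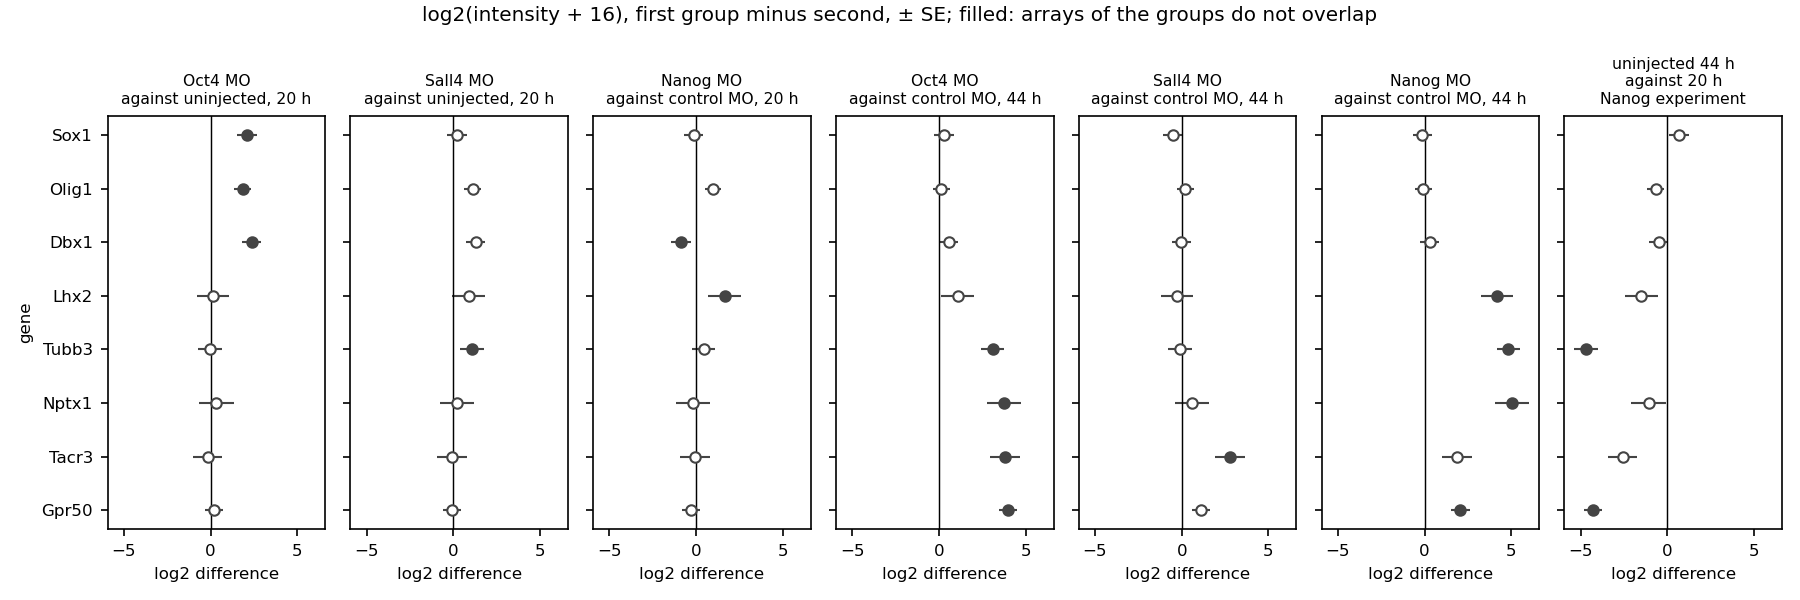
Differences of log2(signal + 16) between groups for the 8 genes in 7 comparisons, with bars of 1 standard error; filled points mark genes whose arrays do not overlap between the groups (3 arrays each). With the Oct4 morpholino the filled points right of 0 are Sox1, Olig1 and Dbx1 at 20 h and Nptx1, Tubb3, Tacr3 and Gpr50 at 44 h, with the Sall4 morpholino Tubb3 at 20 h and Tacr3 at 44 h, and with the Nanog morpholino Lhx2 at 20 h and Nptx1, Tubb3, Lhx2 and Gpr50 at 44 h; over time in uninjected embryos Tubb3 and Gpr50 are filled and lie left of -4.

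Sox1 encodes a SoxB1 factor, among the earliest markers of neuroectoderm. At 20 h its signal was 225, 162 and 129 with the Oct4 morpholino and 26.1, 20.0 and 36.0 in the uninjected embryos. All 3 injected arrays were high and the groups did not overlap. The mean of 172 ± 48.8 (SD, n = 3) was 6.30 times the 27.4 ± 8.10 of the uninjected embryos, a log2 difference of 2.10 (SE 0.567). Differences here and below are of log2(signal + 16), which understates the change of dim genes. In bulk samples such as these, a larger share of cells with a transcript and more of it per cell cannot be told apart.

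The Oct4 morpholino embryos at 20 h had the highest Sox1 level of the 8 groups outside the Nanog experiment. The next group, the Sall4 morpholino embryos at 20 h, reached 42.8 ± 31.0, and its arrays (71.2, 47.5 and 9.80) overlapped with those of the uninjected embryos (39.6, 34.3 and 16.5). At 44 h, the arrays of all 4 groups lay between 3.01 and 76.3. In the Nanog experiment Sox1 was at 98.7 to 786 over all 18 arrays, with the highest mean in uninjected embryos at 44 h (544 ± 168) and the lowest with the Nanog morpholino at 44 h (225 ± 69.6). The Nanog morpholino and control arrays overlapped at both times, and their log2 difference at 44 h was -0.12. The second probe set of Sox1 did not share the difference at 20 h. It was at 7.71, 3.39 and 6.92 with the Oct4 morpholino and 6.17, 11.4 and 4.59 without injection, and at 1 to 1.8 on every array of the Nanog experiment.

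Olig1, a basic helix-loop-helix factor of the oligodendrocyte lineage, was at 137, 156 and 124 with the Oct4 morpholino at 20 h and at 8.27, 56.9 and 29.0 in uninjected embryos. The injected arrays were close to each other and lay above all 3 uninjected ones, and the log2 difference was 1.84 (SE 0.476). The Sall4 morpholino embryos at 20 h followed with 63.4, 83.3 and 146 against 23.9, 15.3 and 87.1, where the arrays overlapped and the difference was 1.11. At 44 h the gene was near the bottom of the scale outside the Nanog experiment, where all 12 arrays lay between 2.90 and 11.8.

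In the Nanog experiment the group means of Olig1 were 81.8 to 472 at 20 h. The Nanog morpholino arrays at 20 h read 925, 345 and 147, spread widely, and overlapped with the control arrays of 385, 74.8 and 179. Their log2 difference of 0.99 became 0.33 without the first Nanog morpholino array and 1.60 without the third. At 44 h the 3 groups of this experiment had means of 35.0 to 45.9 and overlapped.

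Dbx1 is a homeobox gene of ventral interneuron progenitors. It was at 450, 299 and 191 with the Oct4 morpholino at 20 h and at 57.9, 90.4 and 11.2 in uninjected embryos. The groups did not overlap, and the log2 difference was 2.38 (SE 0.551). With the Sall4 morpholino at 20 h the arrays read 236, 96.5 and 79.9 against 157, 31.3 and 6.25, which overlap. The Sall4 difference of 1.30 became 2.11 without the first uninjected array. The Nanog morpholino stood the other way at 20 h, with 144, 91.5 and 170 against 257, 219 and 290 in controls and a log2 difference of -0.87. At 44 h outside the Nanog experiment 11 of 12 arrays were at 1.63 to 10.3, and 1 Oct4 morpholino array was at 55.0.

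**Figure D2:**
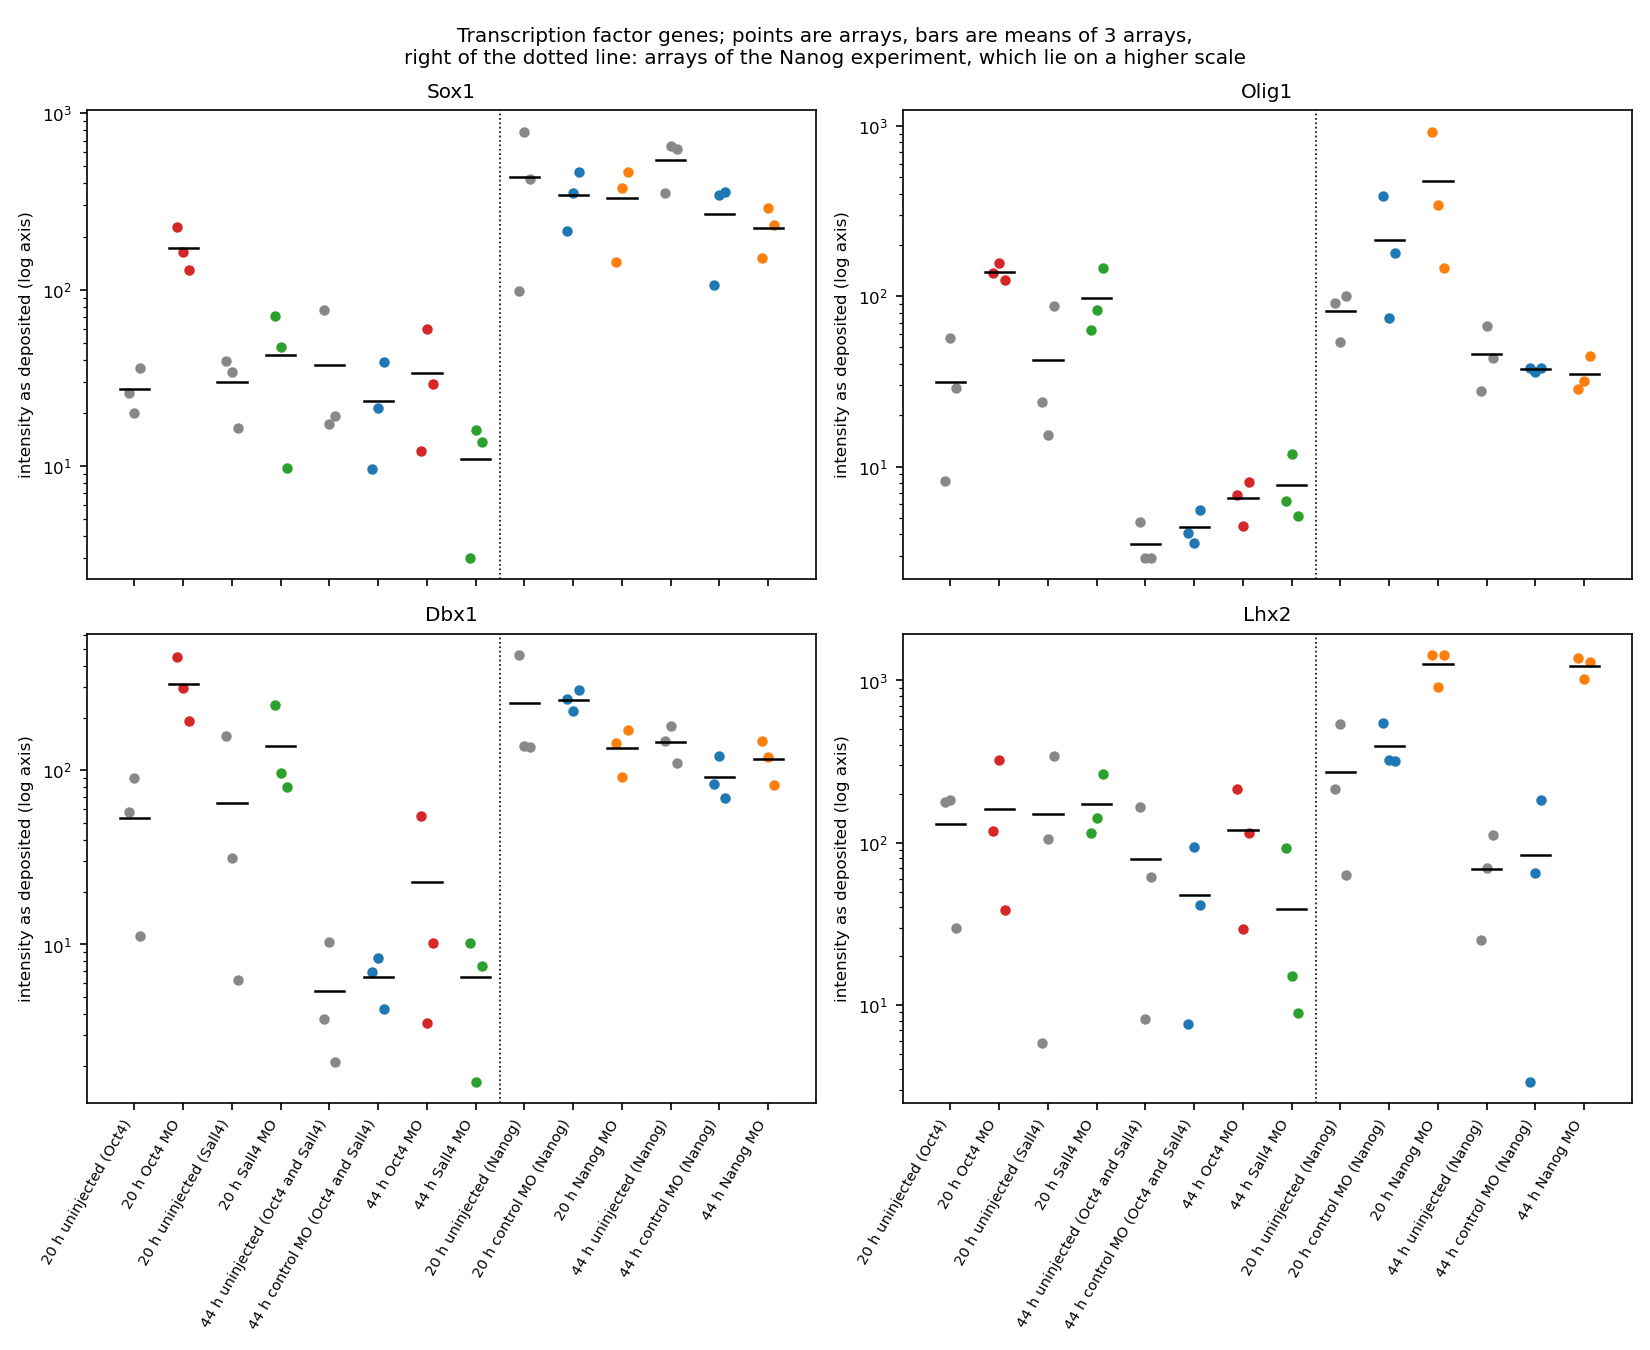
Signals of Sox1, Olig1, Dbx1 and Lhx2 on a log axis for each array (points) in the 14 groups, with a bar at the mean of 3 arrays. Sox1, Olig1 and Dbx1 with the Oct4 morpholino at 20 h lie above their uninjected embryos, and Lhx2 with the Nanog morpholino lies at 908 to 1435 at both times, above every other array of that experiment.

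Lhx2, a LIM-homeodomain factor of forebrain and eye, was bright with the Nanog morpholino at both times. At 20 h the Nanog morpholino arrays read 1428, 908 and 1435 against 548, 323 and 318 in controls. At 44 h they read 1380, 1015 and 1305 against 3.37, 64.6 and 183. None of these groups overlapped, and the 6 Nanog morpholino arrays were above the other 12 arrays of the experiment. The log2 difference was 1.64 (SE 0.930) at 20 h and 4.19 at 44 h, while the Nanog morpholino means were 1257 ± 302 and 1233 ± 193. The wider gap at 44 h thus came with lower controls, at 83.8 ± 91.6 against 396 ± 131 at 20 h. Outside the Nanog experiment the 8 group means were 39.0 to 174 and neighbouring groups overlapped; with the Oct4 morpholino at 44 h, Lhx2 was at 214, 29.6 and 115 against 7.60, 93.5 and 41.1.

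Tubb3 encodes class III beta-tubulin, a standard marker of neurons. At 44 h it was at 1029, 1422 and 1640 with the Oct4 morpholino and at 61.3, 179 and 248 with the control morpholino. In Nanog morpholino embryos it was at 3983, 2983 and 1002, against 34.5, 24.6 and 238 in its controls. All arrays with either morpholino were far above their controls, with log2 differences of 3.10 (SE 0.680) and 4.84. The Sall4 morpholino arrays at 44 h were spread widely, at 159, 495 and 21.2, and overlapped with the same control arrays as for Oct4. Their log2 difference of -0.09 became -0.98 without the second array and 0.91 without the third.

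Tubb3 was also bright in every group at 20 h. The uninjected embryos were at 1039, 998 and 921 in the Oct4 experiment, 916, 580 and 1697 in the Sall4 experiment and 2088, 2685 and 3529 in the Nanog experiment. The Sall4 morpholino embryos at 20 h had the highest mean outside the Nanog experiment, 2057 ± 188, with all arrays (1899, 2007 and 2265) above their uninjected embryos and a log2 difference of 1.07. The Oct4 morpholino at 44 h came next at 1364 ± 310, and its arrays overlapped with those of uninjected embryos at 20 h. Uninjected embryos at 44 h were at 67.4, 16.1 and 10.7, and control morpholino embryos of the same experiment overlapped with them at a log2 difference of 1.93.

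Nptx1, a neuronal pentraxin that clusters AMPA receptors at excitatory synapses, had its highest group means at 44 h. The Nanog morpholino arrays read 3660, 4484 and 2848 against 22.3, 25.9 and 790 in controls, and the Oct4 morpholino arrays 548, 1002 and 382 against 12.2, 32.0 and 50.6. Both groups lay above all their controls, with log2 differences of 5.05 (SE 0.988) and 3.77. A single control array carried much of the spread: without the third control array the Nanog difference was 6.50. The Sall4 morpholino arrays at 44 h (84.1, 8.54 and 105) overlapped with controls at a difference of 0.57.

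At 20 h Nptx1 was dim in the Oct4 and Sall4 experiments, with group means of 23.1 to 54.2. In the Nanog experiment at 20 h, 1 control morpholino array read 2042 beside 55.6 and 44.5, so that this group had the second highest mean (714 ± 1150) and overlapped with both other groups of that time. The log2 difference of the Nanog morpholino at 20 h, -0.17, was 1.49 without that array. The second probe set of Nptx1 was dimmer and less clear. With the Nanog morpholino at 44 h it read 496, 806 and 378 against 49.8, 15.1 and 149, a difference of 2.98. With the Oct4 morpholino it read 19.7, 275 and 85.5 against 5.85, 42.6 and 6.15, which overlap, a difference of 1.74.

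Tacr3, the receptor of the peptide neurokinin B, was at 1236, 111 and 1160 with the Oct4 morpholino at 44 h and at 75.0, 17.4 and 7.19 with the control. The second Oct4 array was well below the others but still above all controls, and the log2 difference of 3.79 (SE 0.860) was 4.88 without it. The Sall4 morpholino arrays at 44 h, at 526, 104 and 340, were also all above these controls, with a difference of 2.79. In the Nanog experiment at 44 h the arrays read 2110, 1067 and 193 with the Nanog morpholino and 181, 132 and 329 with the control, so the groups overlapped at a difference of 1.86. Replicates of Tacr3 could differ widely in that experiment, where uninjected embryos at 20 h read 358, 2112 and 3868. Its other probe sets gave 3.24 and 1.90 for the Oct4 morpholino at 44 h, and 3.00 (without overlap) and 0.67 (with overlap) for the Nanog morpholino.

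Gpr50, an orphan receptor related to the melatonin receptors and encoded on the X chromosome, was at 591, 655 and 339 with the Oct4 morpholino at 44 h and at 17.1, 20.2 and 15.9 with the control. The ratio of the means was 29.8 and the log2 difference 3.96 (SE 0.521). In Nanog morpholino embryos of 44 h it was at 788, 441 and 457 against 320, 120 and 35.4, which do not overlap, a difference of 2.07. That difference was 2.74 without the first control array and 1.39 without the third. The Sall4 morpholino arrays at 44 h, at 16.9, 114 and 74.9, overlapped with the controls at a difference of 1.12. The second probe set of Gpr50 gave 2.64 for the Oct4 morpholino and -0.92 for the Sall4 morpholino, so the direction with Sall4 depended on the probe set.

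The order of Gpr50 levels was flat at the top. Outside the Nanog experiment, the 4 groups of 20 h and the Oct4 morpholino embryos at 44 h had means of 526 to 618 with overlapping arrays. The Sall4 morpholino embryos at 44 h followed at 68.7 ± 49.0, then the control morpholino (17.7 ± 2.20) and uninjected embryos (12.8 ± 1.64), whose arrays did not overlap with each other. In the Nanog experiment the 3 groups of 20 h were at 1645 to 1984, and the Nanog morpholino at 44 h was at 562 ± 196.

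**Figure D3:**
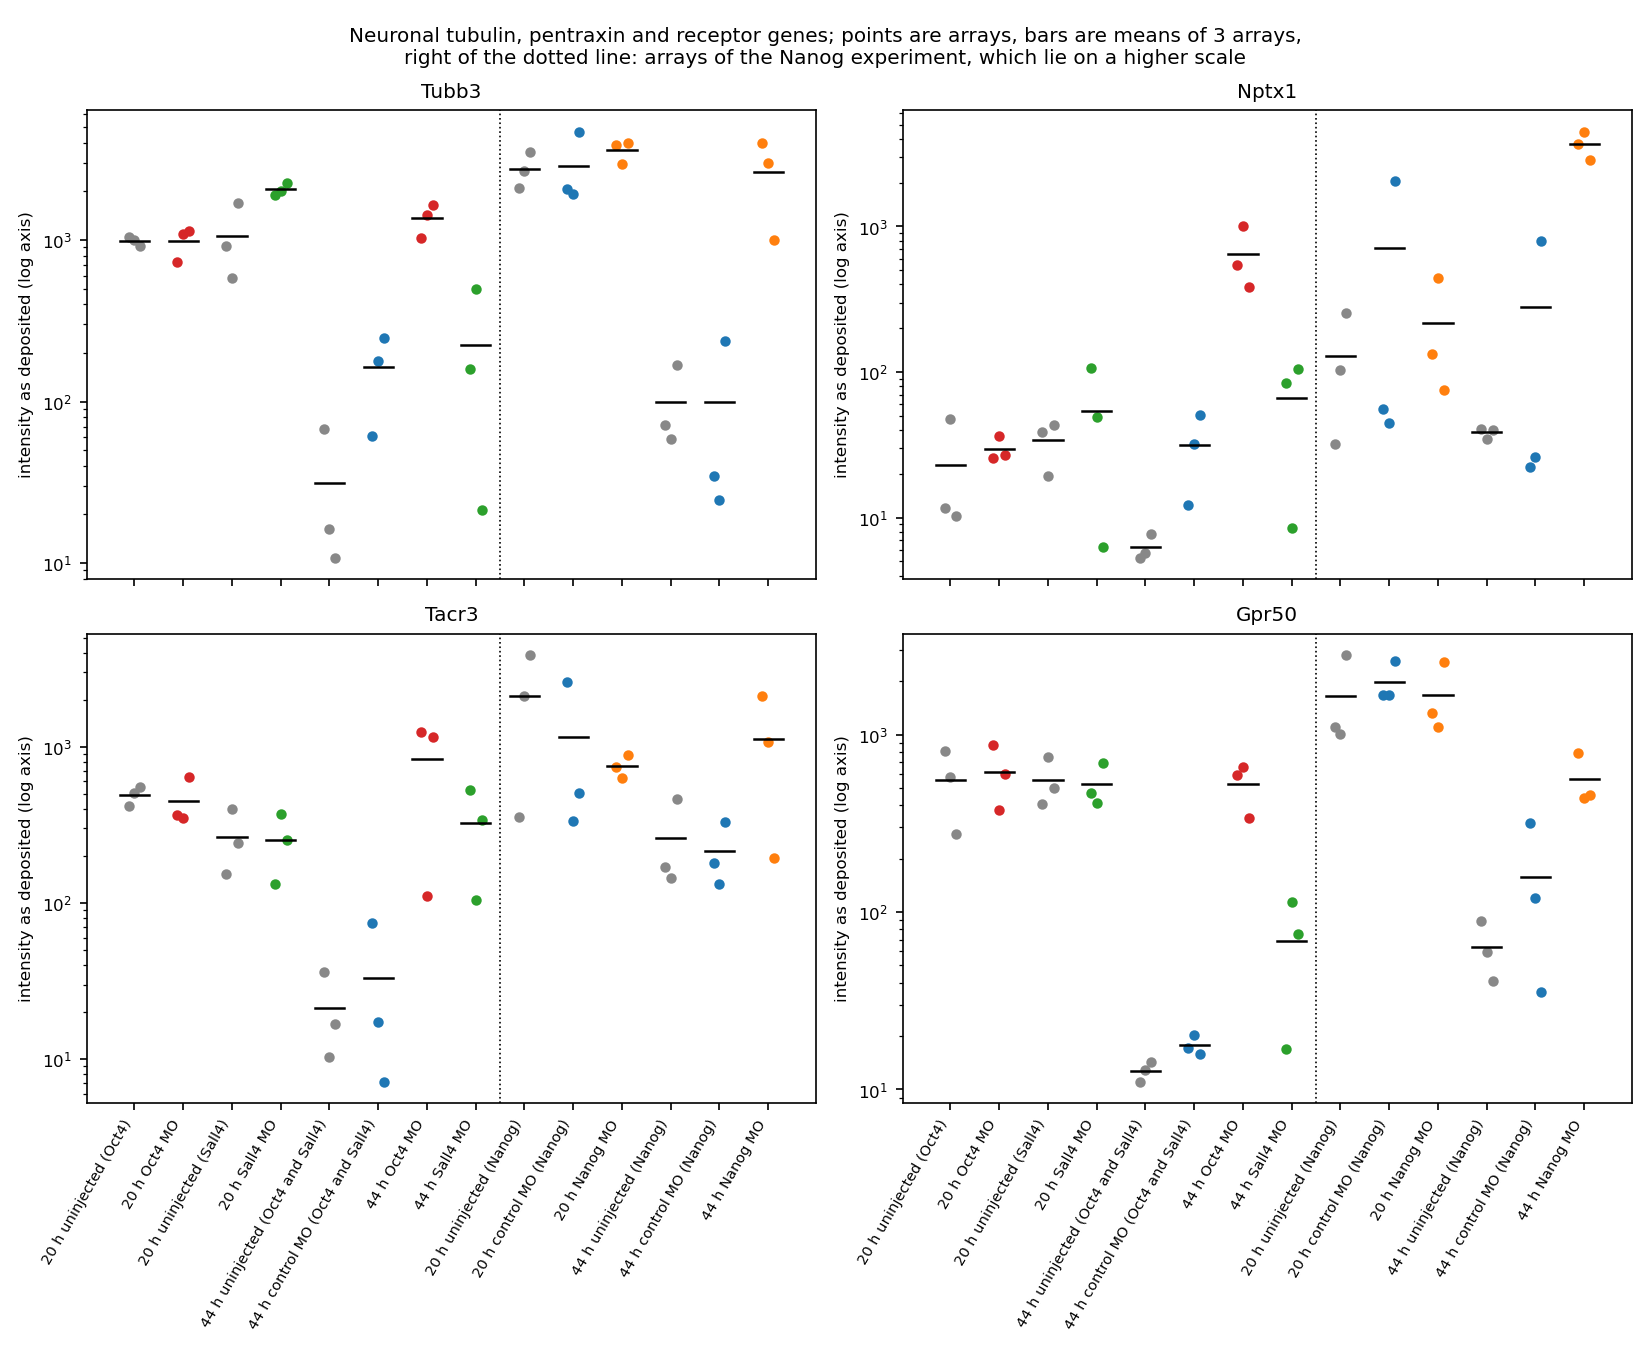
Signals of Tubb3, Nptx1, Tacr3 and Gpr50 on a log axis for each array (points) in the 14 groups, with a bar at the mean of 3 arrays. Tubb3, Tacr3 and Gpr50 have high group means at 20 h and in the Oct4 morpholino embryos at 44 h, while Nptx1 is highest at 44 h with the Oct4 morpholino (644) and with the Nanog morpholino (3664).

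The arrays at 44 h were also set against uninjected embryos in place of the control morpholino. With the Oct4 morpholino the 4 genes without overlap were the same, at log2 differences of 5.03 for Tubb3, 4.78 for Nptx1, 4.19 for Gpr50 and 4.01 for Tacr3. With the Nanog morpholino the 4 higher genes without overlap were again the same, at 6.05 for Nptx1, 4.44 for Tubb3, 4.01 for Lhx2 and 2.86 for Gpr50, and Sox1 was lower without overlap (-1.21). With the Sall4 morpholino 4 genes were higher without overlap, at 3.00 for Tacr3, 1.59 for Nptx1, 1.35 for Gpr50 and 0.27 for Olig1, and Sox1 was lower without overlap (-0.86), where only Tacr3 stood apart from the control. Tubb3 overlapped at a difference of 1.84. The control morpholino itself had 2 of the 8 genes with all arrays above the uninjected embryos shared by Oct4 and Sall4 at 44 h, Nptx1 (difference 1.01) and Gpr50 (0.23), and 0 in the Nanog experiment at either time. The share of all genes without overlap was not computed for the comparisons of this paragraph. They also reuse morpholino or control arrays that chose the 8 genes, so nothing is read from the counts.

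Uninjected embryos of the Nanog experiment gave a comparison of these genes on arrays that were not used to choose them. Tubb3 and Gpr50 fell from 20 h to 44 h, and Tacr3 passed the same test with overlapping arrays. Tubb3 was at 71.1, 58.3 and 168 at 44 h, a log2 change of -4.68 (SE 0.680; limma, Benjamini-Hochberg adjusted p = 3.91e-06). Gpr50 went from 1110, 1010 and 2815 to 89.7, 59.2 and 40.8, a change of -4.27 (SE 0.521, adjusted p = 2.49e-07), and its second probe set gave -3.93. Both kept their call under all 15 alternatives tried. Tacr3 went from 358, 2112 and 3868 to 169, 144 and 466, a change of -2.59 (SE 0.860, adjusted p = 0.0246).

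The call on Tacr3 rested on single arrays. It was lost without 20 h array 2 or 3 (adjusted p = 0.0827 and 0.163) and without 44 h array 1 or 2 (0.0803 and 0.0978). It was also lost when the Nanog experiment was fitted alone (0.0650). The other Tacr3 probe sets gave -3.46 and -2.31 with no overlap between the times, and the mean of all 3 probe sets gave an adjusted p of 1.91e-05.

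The other 5 genes did not pass over this interval. Their log2 differences were -1.50 for Lhx2 (adjusted p = 0.262), -1.08 for Nptx1 (0.472), -0.68 for Olig1 (0.333), -0.49 for Dbx1 (0.572) and 0.66 for Sox1 (0.440). So 3 of 8 genes fell and 0 rose by limma's test, and 2 of them fell without overlap of arrays (23% of all genes did), where 16.4% of all 15502 genes fell and 9.46% rose, and the median change of the 8 was -1.29 against 0.02 over all genes. At an unadjusted p under 0.05, 0 of the 8 rose either. P-values reflect only how far these arrays vary, and an exact permutation test of 3 arrays against 3 cannot give less than 0.1.

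The Nanog morpholino embryos at 44 h were also set against uninjected embryos at 20 h of the same experiment. Tubb3 (log2 difference -0.24) and Tacr3 (-0.89) had arrays that overlapped with the earlier embryos, and Gpr50 lay below them (-1.41). Nptx1 (4.97) and Lhx2 (2.52) lay above every 20 h array. Sox1 (-0.55) and Dbx1 (-0.79) overlapped and Olig1 (-0.92) was below. These values use the arrays that chose the set and have no test.

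**Figure D4:**
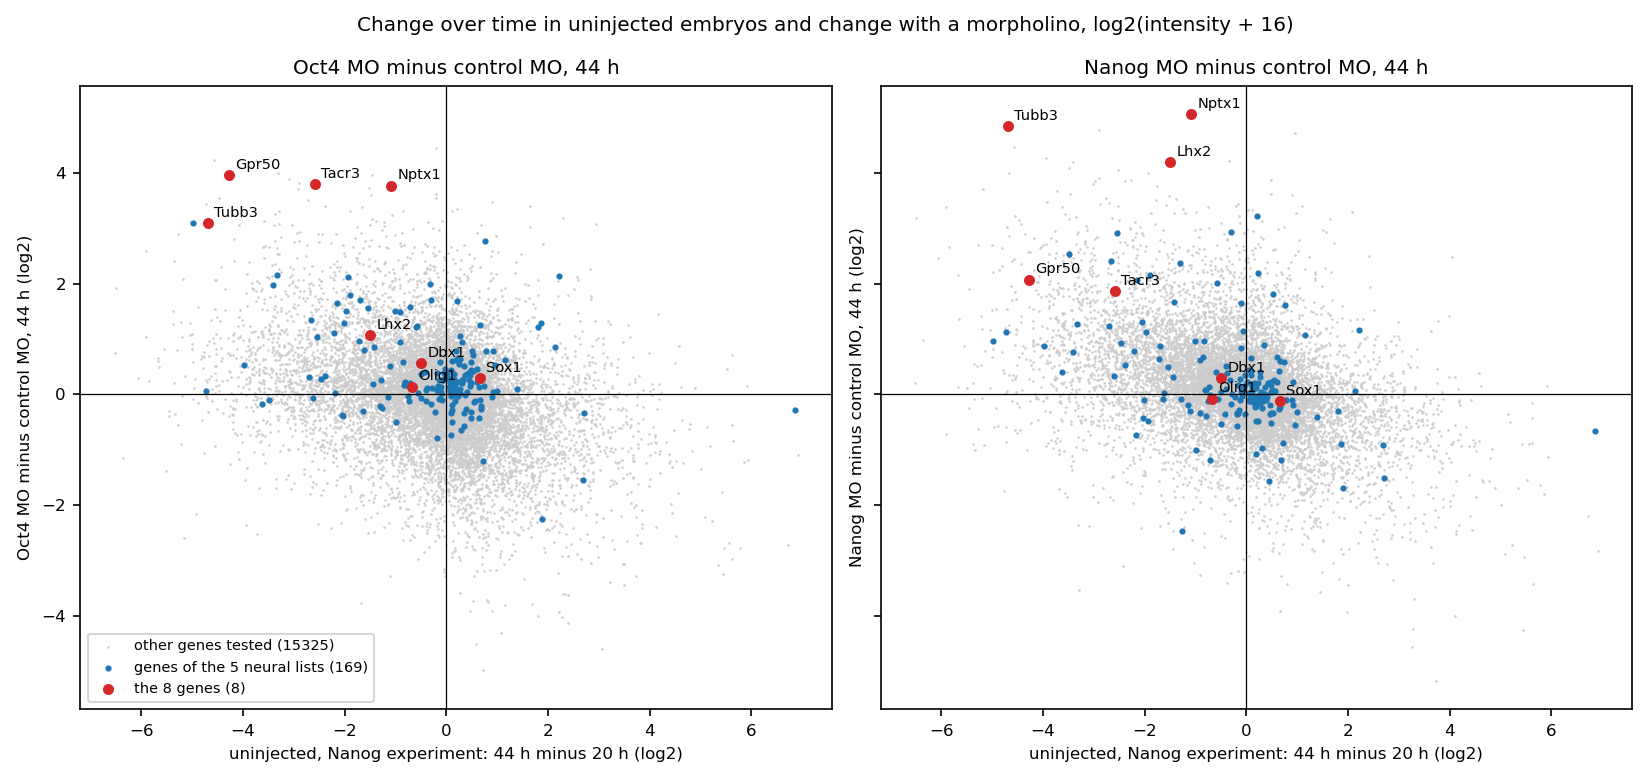
Change in uninjected embryos from 20 h to 44 h in the Nanog experiment (x axis) against the difference with the Oct4 or the Nanog morpholino at 44 h (y axes), both in log2(signal + 16), for the 8 genes, 169 genes of the neural lists and all other genes tested. Tubb3 and Gpr50 lie at the upper left of both panels, with x at -4.68 and -4.27.

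The 3 genes that fell with time shared this with many others. Of the 2537 genes that fell in uninjected embryos, 14.6% were called higher with the Oct4 morpholino at 44 h, 6.66% with the Sall4 and 13.5% with the Nanog morpholino, where 5.26%, 1.8% and 3.51% of all genes were. Seen from the other side, 45.3%, 60.6% and 63.1% of the genes that were higher with each morpholino had fallen over time, against 16.4% of all genes. Of the 1467 genes that rose over time, 1.5%, 0.204% and 0.341% were higher. The time comparison shares no array with the knockdown comparisons.

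Some transcripts of the 2-cell stage and immediate early response were, like Tubb3 and Gpr50, higher at 44 h with the Oct4 and Nanog morpholinos. All 5 tested 2-cell-stage genes were higher with the Oct4 morpholino at 44 h, 1 with the Sall4 and 3 with the Nanog morpholino, and all 5 fell over time. Their summed signal was 5746 to 8804 with the Oct4 morpholino at 44 h and 972 to 2079 with the control. With the Sall4 morpholino it was 3457 to 5925, also above these controls, although Tubb3 and Gpr50 overlapped with the controls there. In the Nanog experiment it was 9173 to 16260 against 4962 to 8598. Of 18 stress and immediate early genes, 7 were higher with the Oct4 morpholino at 44 h and 6 with the Nanog morpholino, and 9 fell over time. Leaving out 1 array gave 6 to 8 of 18 for Oct4 and 4 to 6 for Nanog, and 4 to 5 2-cell-stage genes for Oct4. The count of 2-cell-stage genes with the Nanog morpholino was 0 without control array 2 and 1 without Nanog array 1, and with the Sall4 morpholino 0 without control array 3 and 2 without control array 2 or Sall4 array 1 or 3. Of 8 oocyte genes, 1, 3 and 2 were higher with the Oct4, Sall4 and Nanog morpholinos at 44 h, and 6 fell over time; the count was 1 for Sall4 without control array 2 or 3 and 1 for Nanog without control array 2. At 20 h the stress and immediate early genes summed to 10760 to 13430 with the Oct4 morpholino and 6804 to 8642 in its uninjected embryos. With the Sall4 morpholino they summed to 12310 to 15280 against 12050 to 13350. The part of these groups of genes in the levels of the 8 neural genes was not tested.

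At 44 h, markers of cells outside the embryo lay mostly below the array median. The 9 measured granulosa and cumulus cell genes summed to 94.1 to 122 with the Oct4 morpholino at 44 h against 58.7 to 74.5 with the control, and to 526 to 758 against 513 to 626 with the Nanog morpholino. None of them was above the array median in these morpholino groups, although their sums with the Oct4 morpholino lay above those with the control. The 9 blood and fibroblast genes summed to 163 to 309 against 136 to 212 and to 891 to 927 against 840 to 1416. Of these 9, 2 were above the array median with the Oct4 morpholino and 2 with its control. With the Nanog morpholino 0 were, and 1 was with its control. Regulators of other lineages, such as muscle, heart, blood and endoderm, were read as well. Limma called 0 of 18 higher in each of the 6 knockdown comparisons, or 1 after quantile normalization in the Oct4 and Sall4 comparisons at 44 h. Over all genes, 5.26%, 1.8% and 3.51% were called higher with the Oct4, Sall4 and Nanog morpholinos at 44 h, and at most 0.245% at 20 h. For 18 genes a count of 0 is close to these shares, so nothing is read from it. Leaving out 1 array at 44 h gave 2 for Oct4 without Oct4 array 2, and 1 for both Oct4 and Sall4 without control array 3. At an unadjusted p under 0.05, 2 were higher with the Oct4 morpholino at 44 h and 1 each with the Sall4 and Nanog morpholinos.

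Relatives of the 8 genes were read for how far each family moved. Among the 7 beta-tubulins tested, limma called 3 relatives of Tubb3 higher with the Oct4 morpholino at 44 h, where 5.26% of all genes were. These were Tubb2a (1.71, adjusted p = 0.00232), Tubb2b (1.97, 0.0464) and Tubb6 (1.96, 0.00502). Tubb3 was chosen for its rise on these arrays, so nothing is read from its own call. With Tubb3 counted, 4 of the 7 passed after median centring and after quantile normalization, and 3 to 4 did when 1 array was left out. No relative of Tubb3 passed with the Nanog morpholino at 44 h (3.51% of all genes did). With Tubb3 counted, 1 of the 7 passed there, and 3 did after quantile normalization. With the Sall4 morpholino at 44 h limma called 0, and 2 were higher at an unadjusted p under 0.05. Over time in uninjected embryos 4 beta-tubulins fell under each scaling.

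Nptx2, the closest relative of Nptx1 and likewise a pentraxin of excitatory synapses, was higher at 44 h with the Oct4 morpholino (500, 801 and 646 against 205, 244 and 285; log2 difference 1.34, SE 0.337, adjusted p = 0.00775). In Nanog morpholino embryos it read 2905, 3388 and 2885 against 823, 737 and 291, a difference of 2.41 (adjusted p = 5.05e-05). Unlike Nptx1, it was bright at 20 h, at 3579 ± 954 in uninjected embryos of the Nanog experiment, and fell over time by 2.67 (adjusted p = 4.42e-07). Tac4, which encodes a tachykinin peptide, was higher with the Nanog morpholino at 44 h (2.58, adjusted p = 0.00540; 0.0831 without Nanog array 1). Of the LIM-homeodomain genes other than Lhx2, limma called 0 in the 6 knockdown comparisons, with 1 lower in each of the Oct4 and Sall4 comparisons at 44 h after quantile normalization and at an unadjusted p under 0.05. Lmx1a fell over time by 2.69 under every alternative. Olig2, Olig3, Tacr1, Tacr2 and Mtnr1a were too dim to be tested.

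Beyond the 8 genes, 242 genes of 5 neural lists were read: progenitor and patterning factors, neuronal differentiation and cytoskeleton, synapse, peptides and their receptors, and glia. Of these, 219 had a probe set used here and 169 were tested. With the Oct4 morpholino at 44 h 8 of 169 were higher and 2 lower (4.73% and 1.18%), where 5.26% and 6.23% of all genes were. With the Nanog morpholino at 44 h 6 were higher and 3 lower (3.55% and 1.78%, against 3.51% and 1.52%). With the Sall4 morpholino at 44 h 1 was higher and 0 lower (1.8% and 2.12% of all genes). At 20 h the counts were 1 higher and 0 lower with the Oct4 morpholino (0.174% and 1.84% of all genes), 0 and 0 with the Sall4 morpholino (0.155% and 0.0839%; 4 at an unadjusted p under 0.05), and 0 and 1 with the Nanog morpholino (0.245% and 0.374%). Over time in uninjected embryos 10 of 169 rose and 27 fell (5.92% and 16%, against 9.46% and 16.4% of all genes). The median log2 differences of the 169 genes at 44 h were 0.22 (Oct4), 0.11 (Sall4) and 0.04 (Nanog), where those of all genes were 0.02, -0.02 and 0.05. The 8 genes, chosen because they rose, were left out of these lists, so the shares do not describe neural genes as a whole. Among the remaining genes, the shares called higher at 44 h were no greater than over all genes with the Oct4 and Sall4 morpholinos. With the Nanog morpholino they were about equal.

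**Figure D5:**
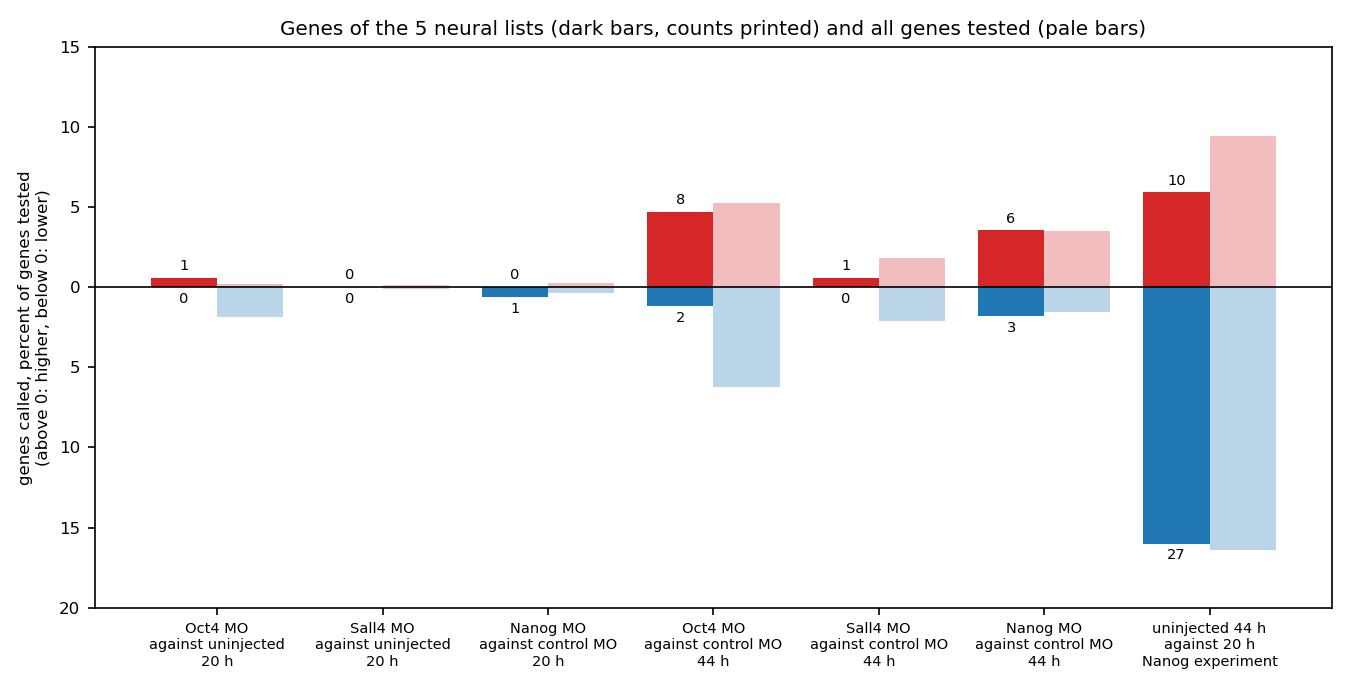
Percent of tested genes called higher (above 0) and lower (below 0) in 7 comparisons, for the 169 genes of the neural lists (dark bars, counts printed) and for all 15502 genes (pale bars). With the Oct4 morpholino at 44 h, 8 neural genes were higher and 2 lower; over time in uninjected embryos 10 were higher and 27 lower.

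The list of neuronal differentiation and cytoskeleton held 4 of the 8 genes that were higher with the Oct4 morpholino at 44 h, of 37 tested. Nefl, the light neurofilament subunit, was at 214, 233 and 218 against 13.9, 13.2 and 8.88, a log2 difference of 3.09 (SE 0.607, adjusted p = 0.000788). Elavl3, a neuronal RNA-binding protein, was at 207, 300 and 83.6 against 23.4, 20.3 and 43.6 (2.12, adjusted p = 0.00323). Nefl, Elavl3 and Nptx2 kept their call with the Oct4 morpholino at 44 h under every alternative. Nefl and Elavl3 fell over time in uninjected embryos, by 4.99 and 1.93; over the mean of all its probe sets the Elavl3 difference over time was -0.53 (adjusted p = 0.367). The remaining genes of this list were Tubb2a and Tubb2b, and the call on Tubb2b was lost in 5 of the 6 fits that left out 1 of its arrays (adjusted p = 0.0627 to 0.177), all but the one without the third control array.

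Among patterning and progenitor factors, Neurog2, a proneural factor, was at 182, 132 and 352 against 32.6, 32.4 and 36.3 with the Oct4 morpholino at 44 h (2.15, adjusted p = 0.0252). Without control array 1, 2 or 3 or without Oct4 array 3 the adjusted p was 0.0659, 0.0729, 0.0600 and 0.123. Nes, which encodes the progenitor filament nestin, was at 376, 250 and 180 against 83.6, 40.5 and 71.9 (1.79, adjusted p = 0.0138; 0.0836 without control array 2 and 0.0727 without Oct4 array 1). Nes was higher with the Nanog morpholino too, at 1493, 1414 and 978 against 337, 321 and 192 (2.15, adjusted p = 0.00738). Neurog2 and Nes fell over time in uninjected embryos, by 3.33 and 1.89, although Nes did not pass without the third 20 h array (adjusted p = 0.0515).

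The last of the 8 was Bsn, a scaffold of the presynaptic zone, with a small difference of 0.78 (adjusted p = 0.0199; 0.0989, 0.0804 and 0.123 without control array 2, control array 3 or Oct4 array 3). The 2 that were lower were Hcrt, the precursor of the orexin peptides, and Cnp, an enzyme of myelin. Hcrt was at 13.0, 40.3 and 8.33 against 87.4, 182 and 194 (-2.25, adjusted p = 0.0218). Its call was lost without control array 2 or 3 (0.0845 and 0.0858) or Oct4 array 1 or 3 (0.0675 and 0.0884). Cnp was at 12.5, 26.6 and 9.55 against 32.3, 65.3 and 80.5 (-1.20, adjusted p = 0.00205), but the mean over its probe sets gave 0.03.

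With the Nanog morpholino at 44 h, the remaining higher genes were Neurog3, Chgb, Pomc and En2. Neurog3, a proneural factor also known from the endocrine pancreas, was at 626, 2002 and 1231 against 135, 175 and 271 (2.54, adjusted p = 0.0141; 0.0594, 0.0545 and 0.0796 without control array 1, control array 2 or Nanog array 2). Chgb, a protein of secretory granules, was at 1967, 354 and 888 against 173, 159 and 197 (2.18, adjusted p = 0.00183). Pomc, a precursor of peptide hormones, had a difference of 2.36 (adjusted p = 0.00893; 0.0647 without control array 3 and 0.0521 without Nanog array 2). The homeobox gene En2 had overlapping arrays (3.23, adjusted p = 0.00604; 0.0521 without control array 3).

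Lower with the Nanog morpholino at 44 h were the serotonin receptor Htr7 (143, 140 and 187 against 1345, 857 and 686; -2.46, adjusted p = 0.0102), Bcl11b, a zinc finger factor of cortical neurons (-1.51, 0.00904), and Cnp (-0.87, 0.0451). Leaving out control array 1 gave 0.0535 for Htr7, and leaving out Nanog array 1 gave 0.0864 for Bcl11b. The call on Cnp was lost without control array 1 or 3 (0.149 and 0.155) or Nanog array 1 or 2 (0.108 and 0.152). The only neural gene called with the Sall4 morpholino at 44 h was Homer1, a scaffold of the postsynaptic density (378, 418 and 397 against 158, 220 and 133; 1.18, adjusted p = 0.0412), and it passed in 1 of the 6 fits that left out 1 array.

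At 20 h, Hes5, a Notch target that holds neural progenitors undifferentiated, was the only one of the 169 genes called higher. It was at 122, 1021 and 427 with the Oct4 morpholino and at 58.5, 9.72 and 6.25 in uninjected embryos (3.51, SE 0.876, adjusted p = 0.0259). Without uninjected array 2 or 3 or Oct4 array 2 or 3 the adjusted p was 0.0832, 0.149, 0.210 and 0.101. Sox21, a SoxB2 factor, was lower with the Nanog morpholino at 39.8, 18.7 and 39.3 against 1792, 1493 and 47.8 in controls (-3.56, adjusted p = 0.00371; 0.0502 without control array 2). In uninjected embryos it rose by 6.86 from 20 h to 44 h.

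Known repressors of neural genes were read as 1 list, with members called in both directions at 44 h. Of 31 tested genes of REST and Polycomb complexes, 3 were higher and 4 lower with the Oct4 morpholino at 44 h (9.68% and 12.9%, against 5.26% and 6.23% of all genes). At 20 h 0 were higher and 2 lower with it (6.45% lower, against 1.84%), but 0 were lower after quantile normalization. Leaving out 1 array gave 1 to 2 lower at 20 h. At 44 h Jarid2, a partner of Polycomb repressive complex 2, was lower with the Oct4 morpholino by 2.21 on the log2 scale (adjusted p = 5.07e-09). It passed under every alternative. It was the only lower gene of the 4 after quantile normalization. At 44 h 3 were higher and 1 lower with the Nanog morpholino (9.68% and 3.23%, against 3.51% and 1.52%), and with the Sall4 morpholino 1 was higher and 0 lower (3.23% higher, against 1.8%). Among the higher ones were Phc2, a Polycomb repressive complex 1 protein, with the Nanog morpholino (2.04) and Bmi1 of the same complex with the Sall4 morpholino (1.03), each kept in every fit that left out 1 array. The part of these genes in the levels of the neural genes was not tested.

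The 8 genes fell into groups by their pattern over the 14 group means, each set of arrays centred apart. Tubb3 and Gpr50 were most alike (Pearson r = 0.944), followed by Tacr3 and Gpr50 (0.868) and Tubb3 and Tacr3 (0.816). Olig1 and Dbx1 gave 0.795, Sox1 and Dbx1 0.78 and Sox1 and Olig1 0.543. Nptx1 stood apart from Sox1 at -0.276. These values share arrays, and the set was chosen on part of the same pattern, so they are descriptions over 14 points.

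Of all genes tested, those with the most similar pattern to Tubb3 were Ptger4 (0.975), Ier5 (0.974) and Cfap52 (0.963), and to Gpr50 Arg2 (0.977), Mfsd2a (0.977) and Egr1 (0.975). Ier5 and Egr1 are immediate early genes, and Arg2 was on the list of 2-cell-stage genes. For Tacr3 they were Ccser1 (0.949), Pdgfrl (0.947) and Ddx50 (0.939), for Nptx1 Etv2 (0.942), Dusp4 (0.913) and 4930592C13Rik (0.912), and for Lhx2 Mlf1 (0.906), Id2 (0.876) and Neb (0.875). The nearest to Sox1 were Obsl1 (0.905), 1700036A12Rik (0.876) and Eva1c (0.871), to Olig1 Ddx25 (0.953), Hes6 (0.948) and Elapor2 (0.942), and to Dbx1 Zfp90 (0.969), H1f7 (0.934) and Slco1a4 (0.926). Hes6, a neural factor of the Hes family, was the only gene of the neural lists among these 24.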

How the data were processed

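Each of the 42 arrays had 1 deposited intensity per probe set on a linear scale; the sources used here do not give how the authors turned scans into these values. RNA was isolated with a PicoPure kit and amplified with NuGEN reagents, per the labels' protocols. Samples were grouped from their titles. Of 45101 probe sets, 34945 carried 1 gene symbol in the platform annotation and 932 several, which were left out; of several probe sets the one with the highest mean stood for each of 18193 genes. Values were used as log2(intensity + 16). A gene was tested if the mean of log2 values in any group exceeded the median of the table (an intensity of 71.15), which left 15502 genes. A linear model over all arrays had group means as its terms and 28 residual degrees of freedom (limma 3.58.1, R 4.3.3). It was tested two-sided with Benjamini-Hochberg adjustment over all genes and a threshold of 0.05. The procedure was first run on simulated data with independent normal noise, of equal spread in all groups for a given gene. Single outlying arrays, as seen here, were not simulated, so that run does not bear on single calls. Plots used matplotlib 3.10.9 and numpy 2.4.6 under Python 3.11.15.

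The 8 genes, the gene lists and the rules were chosen with earlier results of these data known, so knockdown values of the 8 genes carry no test. From each of the 5 neural lists, in each of 6 knockdown comparisons, the text names up to 3 rises and 3 falls, the largest of those past the threshold without overlap of the groups' arrays, and per member the 3 genes with the most similar pattern. En2, Tac4, beta-tubulins, repressors and genes with changes over time were named beside this rule, after their values were seen. Alternatives were pseudocounts of 1 and 64, 2 other filters, the mean of all probe sets, quantile normalization, median centring, each experiment fitted alone, the replicate number as a block, uninjected embryos as the reference, and leaving out each array. Same-numbered arrays deviated together in no comparison with all 3 pairs above a correlation of 0.1, so the numbers were not taken as pairs. Even so, the array that deviated most alike bore the same number for 1 to 3 of the 3 arrays per comparison. It did for all 3 with the Nanog morpholino at 44 h, so some shared structure by number may remain.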

Additional observations from a re-analysis of the deposited data

Results flagged for a closer look

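Nptx2, the relative of Nptx1, responded differently to the Nanog morpholino at the 2 times. Its log2 difference from the control morpholino was 2.41 at 44 h and -0.27 at 20 h, and the difference between these effects was 2.68 (SE 0.476; limma interaction term, adjusted p = 0.00449, 3 arrays per group). The same test called 127 of 15502 genes. The Nptx2 call held in all 12 fits that left out 1 array (adjusted p = 0.00323 to 0.0162). The homeobox gene En2 also passed, with a difference of 3.23 at 44 h, -1.19 at 20 h and 4.41 between them (SE 1.01; limma interaction term, adjusted p = 0.0275). Its arrays overlapped between the groups at 44 h, and the call was lost in 8 of 12 fits that left out 1 array (adjusted p = 0.0540 to 0.0795). The fits that kept it were those without the second control or the first Nanog morpholino array of 20 h and without the first control or the first Nanog morpholino array of 44 h. The test was read for the 10 neural list genes named with the Nanog morpholino, and the other 8 did not pass. These genes were named because they were called with this morpholino at 20 h or 44 h. The test uses the same arrays again, so the choice favours a large difference between the times.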

How the results depend on the processing

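The 15 alternatives left the call on Tubb3 and Gpr50 over time in place, and 3 of the 20 differences of neural list genes (Nefl, Elavl3 and Nptx2 with the Oct4 morpholino at 44 h) passed in each. Of 510 values of the 8 genes under other settings in the knockdown comparisons, 24 moved by more than 1 SD and 1 reversed, Sox1 with the Oct4 morpholino at 20 h on its other probe set (-0.082). The mean of all probe sets also turned Cnp (0.034) and Eed (0.055) with the Oct4 morpholino at 44 h. The causes were not tested.

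Counts of the 169 neural list genes moved as follows. With each experiment fitted alone, which has fewer arrays, limma called 0 in place of 1 for Oct4 at 20 h (22 at an unadjusted p under 0.05), 0 in place of 1 for Nanog at 20 h (12), 6 in place of 10 for Oct4 at 44 h, 0 in place of 1 for Sall4 at 44 h (11) and 0 in place of 9 for Nanog at 44 h (24). A pseudocount of 1 gave 0 for Oct4 at 20 h (12 unadjusted) and 3 for Sall4 at 44 h. For Sall4 at 44 h, a pseudocount of 64 gave 0 (7 unadjusted), the mean of all probe sets 0 (10) and uninjected embryos as the reference 3. With uninjected embryos Nanog at 44 h gave 17. With the replicate number as a block the Sall4 count at 44 h was 0 (16 unadjusted), and in no other comparison did the block move a neural list count by more than 1.5 times; the samples share only a number. Leaving out 1 array gave 0 to 1 for Oct4, 0 to 2 for Sall4 (2 without the first uninjected array) and 0 to 2 for Nanog at 20 h, 7 to 11, 0 to 3 and 6 to 12 at 44 h, and 2 to 3 of the 8 genes over time.

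Over all genes, the counts called were 312 for Oct4 at 20 h (0 to 527 over the settings), 37 for Sall4 (0 to 181), 96 for Nanog (0 to 169), 1781 for Oct4 at 44 h (1033 to 1994), 608 for Sall4 (119 to 791), 780 for Nanog (113 to 1275) and 4004 over time (3228 to 4894). The lowest counts of 0 came with the experiment alone, where 2099, 955 and 1102 genes had an unadjusted p under 0.05. The split of higher against lower genes at 20 h was 24 to 13 for Sall4, but 23 to 22 after median centring and 16 to 22 after quantile normalization, and 38 to 58 for Nanog, but 18 to 44 after quantile normalization.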

Other observations

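Tubb4b, a beta-tubulin found in most tissues, had group means of at most 52.4 on the arrays of the Nanog experiment and up to 10585 ± 881 (SD, n = 3) on the other arrays, although the medians of the Nanog arrays were at least 5.79 times higher. A level of 1 gene therefore cannot be carried from one set of arrays to the other.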
